A study of Mus musculus with 72 samples.

Results

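White adipose tissue of mice lacking Bmal1 throughout the body (KO) was compared with that of wild-type mice (WT) at zeitgeber time 4 (ZT4, in hours). The comparison used 8 of the 72 RNA sequencing libraries of the series, 4 KO and 4 WT, chosen by genotype and time in their labels. The labels name the tissue eWAT, and the series title names white adipose tissue. A further genotype, LRE, which the labels do not expand, had 4 libraries at ZT4 and is used here for reference. The sources used here do not give age, sex, strain, the knockout allele or whether each library is a separate animal. The p-values therefore cover the spread among these libraries, which may be technical in part. The design text of the series describes a hepatocyte line in place of tissue, and the sample labels were followed.

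BMAL1 is a DNA-binding activator at the heart of the circadian clock. It pairs with CLOCK or NPAS2 and drives genes such as the Per and Cry repressors, which in turn inhibit the pair, and the REV-ERB repressors. Mice without Bmal1 lose behavioural rhythms, and fat tissue normally holds a clock of its own that is tied to lipid storage and release. The question the comparison addresses is which transcripts stand at another level in fat without this factor at a fixed time of day.

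The rows of the deposited count table carry no gene identifier. Row numbers (the first line after the column names is 1) are therefore used for 4 features, 2 in each direction, and the others are described without a number. The level of Bmal1 and the markers of fat cells were not checked for the same reason. In the 8 libraries 16385 of 32377 rows had a count. Of these, 1552 rows (9.47%) had at least 10 counts in at least 4 libraries and were tested, and the other 14833 were not. A filter on raw counts takes rows in more readily through the deeper group. It kept 72 rows with under 10 counts in every KO library, against 3 rows with under 10 in every WT library. At its edge, 412 rows reached 10 counts in exactly 4 libraries and 688 in exactly 3.

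Library totals ran from 54178 to 68773 counts in KO and from 57396 to 168905 in WT, where 3 of the 4 libraries had 138365 counts or more. A single count equalled 14.5 to 18.5 CPM (counts relative to the library total) in KO and 5.92 to 17.4 CPM in WT. KO libraries had counts on 8661 to 10371 rows and WT libraries on 8683 to 11759. KO libraries carried well number 4 on the plate and WT libraries number 1, so genotype and plate position cannot be told apart.

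The KO libraries differed among themselves far more than the WT libraries did. Over the 1552 rows, the Spearman correlation of log2 CPM between pairs of WT libraries ran from 0.75 to 0.87 (median 0.80 over 6 pairs). Between pairs of KO libraries it ran from 0.21 to 0.72, with a median of 0.57, close to the median of 0.55 over the 16 pairs of a KO and a WT library. KO replicate 4 stood farthest out, with a median correlation of 0.29 with the WT libraries, followed by KO replicate 2 with 0.46. KO replicate 1 had 0.68 and KO replicate 3 had 0.63. The median absolute distance from the WT mean, on the log2 scale, was 0.87 in KO replicate 4, 0.60 in replicate 2 and 0.42 in replicates 1 and 3. It lay between 0.25 and 0.34 in the WT libraries, each set against the other three. The coefficient of variation beyond counting error, estimated over all tested rows, was 0.44 in KO and 0.19 in WT. In 80.4% of rows the SD of log2 CPM was larger in KO. The tested rows held 51.0% of counts in KO replicate 4 and 55.0% in replicate 2, against 61.6% and 70.8% in replicates 3 and 1 and 67.8% to 68.9% in WT.

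**Figure D1:**
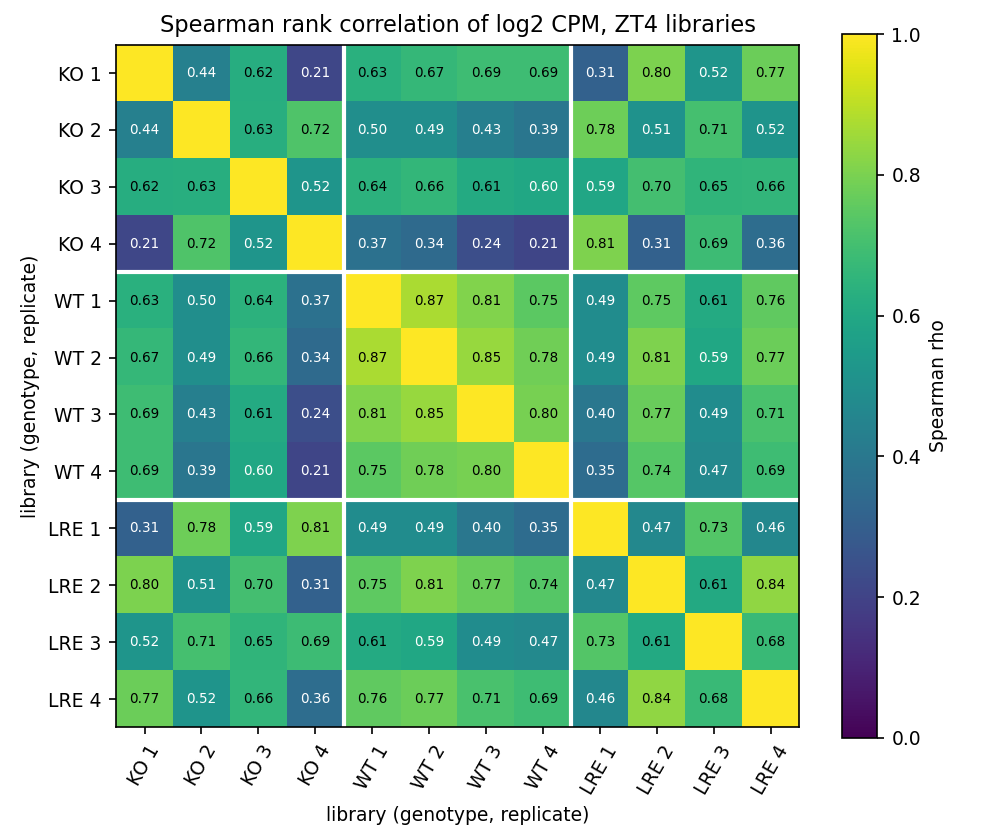
Spearman rank correlation of log2 CPM over the 1552 tested rows, for each pair of the 12 libraries of ZT4, with genotype and replicate on both axes and white lines between genotypes. The WT block is even (0.75 to 0.87), while KO pairs run from 0.21 to 0.72 and LRE pairs from 0.46 to 0.84.

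KO and WT differed at 78 of the 1552 rows, or 5.03% (adjusted p under 0.05 by edgeR's quasi-likelihood test). Of these, 31 rows (2%) were higher in KO and 47 rows (3.03%) were lower. All 78 differed by at least 2-fold, while 220 of the tested rows did so. The median log2 fold change was 2.38 over the higher rows and -1.76 over the lower ones, beside 0.11 over all tested rows, whose quartiles were -0.34 and 0.49. The higher rows ran from 1.14 upward, and the lower rows from -1.29 to -4.41. At least 4-fold differences were seen for 19 of the higher and 18 of the lower rows. At an unadjusted p under 0.05 there were 334 rows, 172 higher and 162 lower, where 77.6 would be expected with no difference. The fit gave both groups the same spread, whereas the coefficient of variation was 0.44 in KO and 0.19 in WT. The expected number may therefore not hold for these libraries. The last row called had an adjusted p of 0.0482 and the next one 0.051 by edgeR.

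The count rested on which libraries were included. Without KO replicate 1 it was 272, with 158 higher and 114 lower, and it held 75 of the 78. Without KO replicate 2 it was 30, and without KO replicates 2 and 4 together 40. Leaving out WT replicate 1, 2, 3 or 4 gave 34, 50, 34 or 43. Without KO replicate 4 the count was 56, with 20 higher. All 78 rows kept their direction in each of these fits. They were chosen on these same libraries, which largely fixes that outcome, so it supports nothing. Depth ran with genotype, and with the log2 library total as a term no row was called by edgeR (156 at an unadjusted p under 0.05). All 78 again lay on the side they were chosen for. In that fit the median log2 fold change was 2.61 over the higher and -1.67 over the lower rows, beside 2.38 and -1.76 without the term. The rows were chosen on fold changes in these libraries, and the part of depth in the calls was not tested. With every library thinned to 54178 counts, 55 rows were called, of which 52 were among the 78.

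**Figure D2:**
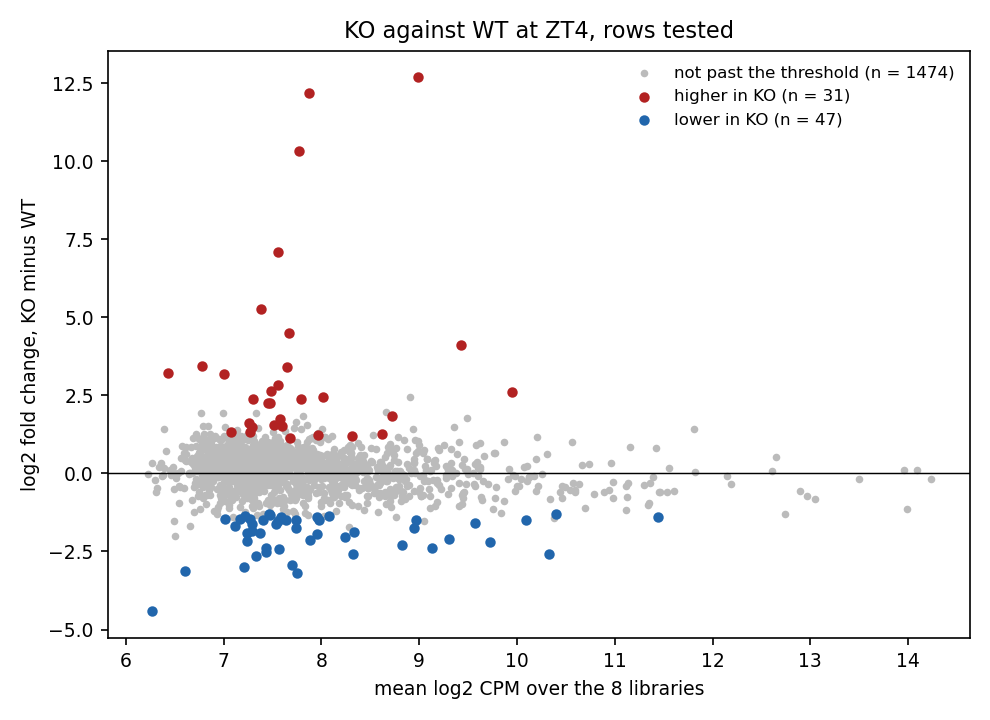
Log2 fold change (KO minus WT) against mean log2 CPM for the 1552 tested rows, with the 31 rows higher in KO in red and the 47 lower rows in blue. The lower rows end at -4.41, whereas 5 higher rows lie above 5.

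Calls were spread over the range of levels. In the lowest tertile of mean level 3.28% of rows were called, with 7 higher and 10 lower. In the middle tertile 6.77% were called, with 16 higher and 19 lower, and in the highest 5.03%, with 8 higher and 18 lower. The rows measured most deeply were the 368 with at least 10 counts in all 8 libraries, of which 2.99% were called. These 11 comprised 4 higher rows, at log2 fold changes of 1.18 to 4.10, and 7 lower rows, at -1.29 to -2.57. All 7 lower rows had groups that did not overlap, against 2 of the 4 higher rows. Over all tested rows, 7.86% did not overlap on the lower side and 4.32% on the higher side. The share over the 368 rows is not given here. The called rows were chosen on these same values, so the counts are a description.

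Levels did not overlap between the groups for 47 of 47 lower rows and for 16 of 31 higher rows, where 12.2% of all tested rows did not overlap (7.86% lower and 4.32% higher). The rows were chosen on these same values, so the counts are a description. Of the lower rows, 21 had under 10 counts in every KO library and passed the filter only through WT, while 3 higher rows had under 10 in every WT library and passed only through KO. Of the rows with 10 counts in at least 1 library of each genotype, 26 of 26 lower and 13 of 28 higher rows did not overlap, where 6.03% and 4.33% of all such rows did not. In each of the 15 overlapping higher rows, KO replicate 1 was the only KO library that reached into the WT range. Among the 31 higher rows, KO replicate 1 was the lowest KO library in 25, and replicate 4 or 2 was the highest in 17 and 10. Over all tested rows on the higher side, replicate 1 was the lowest KO library in 46.7% and replicate 4 the highest in 46.2%. Among the 47 lower rows, replicate 3 was the highest KO library in 19 and replicate 1 in 15. Replicate 4 was the lowest in 16 and replicate 1 in 15. Over all tested rows on the lower side, replicate 1 was the highest KO library in 48.4% and replicate 4 the lowest in 47.5%.

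As a share of all counts, the 31 higher rows together held 0.583% in KO replicate 1, 8.86% in replicate 2, 3.60% in replicate 3 and 8.63% in replicate 4. In the WT libraries they held 0.294% to 0.378%. The 47 lower rows held 0.522% to 1.19% in KO and 3.30% to 3.97% in WT. A single higher row, the one with the largest fitted fold change, held 5.15% of all counts in KO replicate 2 and 4.12% in replicate 4. Without it the other 30 higher rows held 0.548%, 3.71%, 2.15% and 4.51% in KO replicates 1 to 4, and 0.294% to 0.377% in WT. With or without that row, the share of the higher rows varied more among the KO libraries than that of the lower rows. The rows were chosen for their difference, so these shares describe the libraries and test nothing. In bulk tissue, fewer cells of a type and less RNA per cell cannot be told apart.

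**Figure D3:**
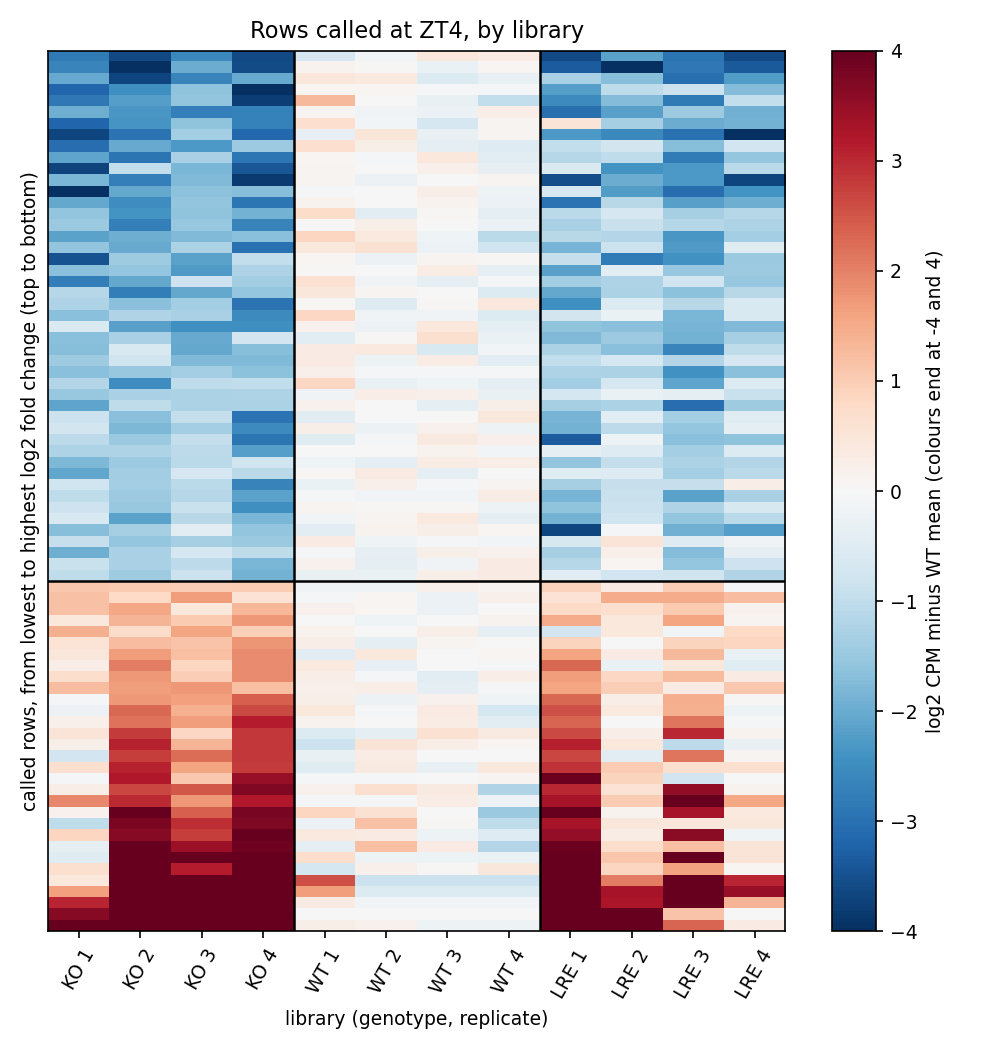
Log2 CPM minus the WT mean for the 78 called rows (vertical axis, ordered by fold change, with 47 lower rows above the black line and 31 higher rows below) in the 12 libraries of ZT4. Lower rows are blue in all 4 KO libraries, while KO replicate 1 is the palest KO library in 25 of the 31 higher rows, and the LRE libraries differ among themselves.

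Some higher rows were nearly absent from WT. In 4 of the 31 higher rows, at least 3 of the 4 WT libraries had no count. No other tested row had this pattern of WT counts. Such a row passes the filter only with at least 10 counts in at least 3 KO libraries, which largely fixes its direction. The row with the largest fitted fold change was not among these 4. It had 24, 3328, 786 and 2704 counts in KO replicates 1 to 4, and 1, 1, 0 and 0 counts in the WT libraries. At 60720 CPM in KO replicate 2 and 51730 CPM in replicate 4 it had more counts than any other row of those libraries, and it ranked 5 in replicate 3 at 14750 CPM. In replicate 1 it stood at 309.9 CPM and ranked 366. The next row, which was among these 4, had 16, 616, 112 and 527 counts in KO and none in WT. Against a floor of 3 counts per WT library, its mean was at least 222.8-fold higher in KO. The row with the smallest p, also among the 4, had 11, 261, 224 and 358 counts in KO and a single count in WT replicate 1 (adjusted p = 0.000321 by edgeR). All 3 rows were lowest in KO replicate 1 and above every WT library there as well. They passed the filter only through KO. The fitted fold changes of rows with so few WT counts depend on the prior count and are not given.

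The remaining 2 of the 4 rows with no count in at least 3 WT libraries had all their WT counts in a single library. One had 5, 117, 96 and 341 counts in KO and 10 in WT replicate 1 alone, and the other had 2, 80, 54 and 273 in KO and 27 in WT replicate 1 alone. In both, WT replicate 1 stood above KO replicate 1, at 65.8 against 64.6 CPM in the first and 177.7 against 25.8 CPM in the second. Among the lower rows none was at 0 in all KO libraries. The row with the largest fold change had 1, 0, 1 and 0 counts in KO and 18, 34, 43 and 15 in WT (log2 fold change -4.41 ± 0.66, SE, adjusted p = 0.0019 by edgeR). It passed the filter only through WT.

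Of rows with a count in all 8 libraries and no overlap, the largest rise was in row 12512. Its level was 77.5, 1861, 525 and 1703 CPM in KO replicates 1 to 4, from 6, 102, 28 and 89 counts. In WT replicates 1 to 4 it was 19.7, 53.6, 45.8 and 67.5 CPM, from 3 to 10 counts. KO replicate 1 stood just above the highest WT library, and the other three KO libraries lay far above the WT range. The log2 fold change was 4.51 ± 0.76 (SE, adjusted p = 0.00335 by edgeR). It was 2.60 without KO replicates 2 and 4 (adjusted p = 0.0387), and the test was not passed with limma-voom (3.78, adjusted p = 0.0914) or with library total as a term (4.27, adjusted p = 0.33).

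Row 2639 was also higher in KO. It stood at 116.2, 894, 488 and 1224 CPM in KO replicates 1 to 4 and at 79.0, 75.1, 45.8 and 33.8 CPM in WT. The KO replicates lay in the same order as in row 12512 except that replicate 4 was the highest. The log2 fold change was 3.41 ± 0.57 (SE, adjusted p = 0.00335 by edgeR), and 2.12 without KO replicates 2 and 4 (adjusted p = 0.0411). In the fit that added the LRE libraries it was 3.43 (adjusted p = 0.0513), and with library total as a term 4.12 (adjusted p = 0.283).

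Row 26770 was lower in KO, with under 10 counts in every KO library, so it passed the filter only through WT. It stood at 51.6, 91.2, 150.1 and 19.1 CPM in KO replicates 1 to 4, from 1 to 8 counts. In WT it stood at 1211, 477, 392 and 236 CPM, from 14 to 184 counts. WT replicate 1 was well above the other WT libraries, and no KO library reached the lowest WT level. The log2 fold change was -2.93 ± 0.58 (SE, adjusted p = 0.00844 by edgeR). The fold change was -2.78 with limma-voom (adjusted p = 0.0897), -2.43 with library weights (0.0653), -2.68 without KO replicates 2 and 4 (0.0531) and -2.13 with library total as a term (0.455), none of which passed the test.

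Row 105 had the smallest p of the lower rows. It too had under 10 counts in every KO library and passed the filter only through WT. It stood at 77.5, 54.7, 37.5 and 38.3 CPM in KO replicates 1 to 4, from 2 to 6 counts, and at 382, 311, 294 and 422 CPM in WT, from 25 to 58 counts. Both groups were tight here, and KO replicate 1 did not stand apart. The log2 fold change was -2.66 ± 0.37 (SE, adjusted p = 0.00151 by edgeR), a level 6.32 times lower in KO. It was called in each of the other fits but that with library total as a term, where the fold change was -2.88 and the adjusted p 0.0671.

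The most abundant called row of each direction was also examined. The lower row of highest mean level stood at 2221, 1660, 2045 and 1014 CPM in KO and at 4304, 4236, 4178 and 5603 CPM in WT, from 53 to 790 counts (log2 fold change -1.40 ± 0.35, SE, adjusted p = 0.0324 by edgeR). Every KO library lay under every WT library. The higher row of highest mean level stood at 465, 4653, 1051 and 5606 CPM in KO and at 461, 472, 484 and 523 CPM in WT (adjusted p = 0.023 by edgeR). KO replicate 1 lay within the narrow WT range, and the difference came from the other KO libraries. The most abundant row of all did not pass the test, at 32720, 17100, 21560 and 6849 CPM in KO and 19480, 23350, 18290 and 26650 CPM in WT.

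**Figure D4:**
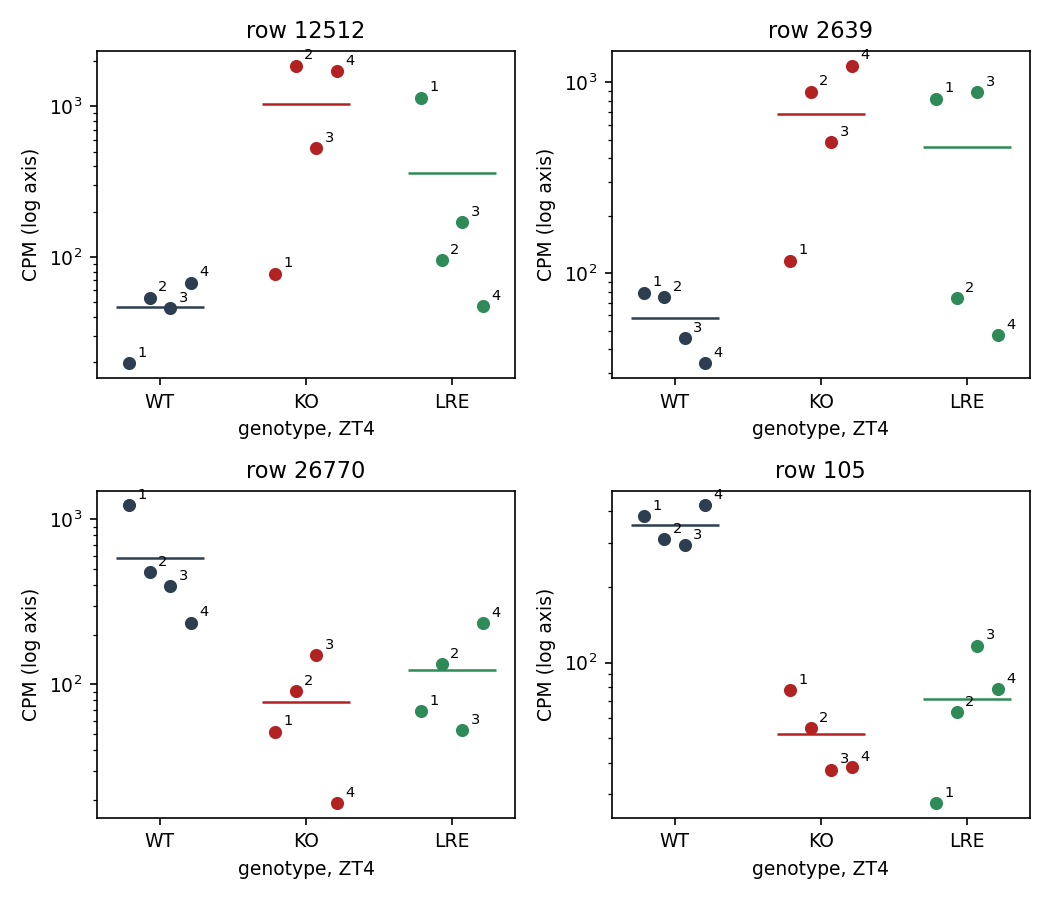
Level in CPM (log axis) of rows 12512, 2639, 26770 and 105 in each WT, KO and LRE library of ZT4, with replicate numbers beside the points and a line at the mean. In the upper panels KO replicate 1 lies close to WT, and in the lower panels all 4 KO libraries lie under all 4 WT libraries.

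The 78 rows were then examined at the other 5 times, in KO and WT libraries that had no part in their selection. There were 8 libraries for each time, and the 1552 rows were tested again at each. KO and WT libraries of ZT0, ZT8 and ZT12 carried the same well numbers as those of ZT4. Those of ZT16 and ZT20 carried other well numbers. Genotype and plate position cannot be told apart at any of these times, and the part of position in the calls was not tested. Of the 47 lower rows, 20 were also called lower at ZT0 (edgeR, adjusted p under 0.05), where 1.68% of all rows were. At ZT8 it was 26 rows (5.41% of all rows) and at ZT12 it was 15 rows (1.74%). Of the 31 higher rows, 6 were also called higher at ZT0 (2% of all rows), 24 at ZT8 (6.06%) and 9 at ZT12 (1.29%). No row of either set was called in the opposite direction at these 3 times. In all, 34 of the 47 lower and 25 of the 31 higher rows were called in the same direction at 1 or more of the other times, where 13.7% of all rows were called lower and 10.9% higher at 1 or more of them.

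Few of these rows were called at ZT16 and ZT20. At ZT16, 0 of the 31 higher rows were called higher (3.67% of all rows) and 2 were called lower. Of the 47 lower rows, 1 was called lower at that time (7.28% of all rows) and 1 higher, and only 17 lay on the lower side. The 4 WT libraries of ZT16 stood apart over the same 1552 rows. Their median Spearman correlations with WT libraries of other times ran from 0.06 to 0.56, against 0.64 to 0.80 in the WT libraries of ZT0, ZT4, ZT8 and ZT12. In WT at ZT20 the lowest was 0.22, and the shallowest KO library of ZT16 had 5293 counts. At ZT20 edgeR called no row at all (0% in either direction, 317 rows at an unadjusted p under 0.05). At that time 41 of the 47 lower rows still lay on the lower side, with a median log2 fold change of -0.87. Only 10 of the 31 higher rows lay on the higher side, with a median of -0.58.

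The median log2 fold change of the lower rows was -1.16 at ZT0, -1.37 at ZT8, -1 at ZT12 and 0.23 at ZT16. That of the higher rows was 0.83, 2.53, 1.45 and 0.24. The medians of all tested rows lay between -0.09 and 0.07 at these 5 times. At all 5 other times, 15 of 47 lower rows lay on the lower side, where 7.26% of all rows lower at ZT4 did, and 8 of 31 higher rows on the higher side (9.32% of all rows higher at ZT4). Leaving ZT16 aside, 37 of 47 lower rows lay on the lower side at the other 4 times, where 24.5% of all rows lower at ZT4 did. For the higher rows it was 9 of 31, where 14.1% of all rows higher at ZT4 did.

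**Figure D5:**
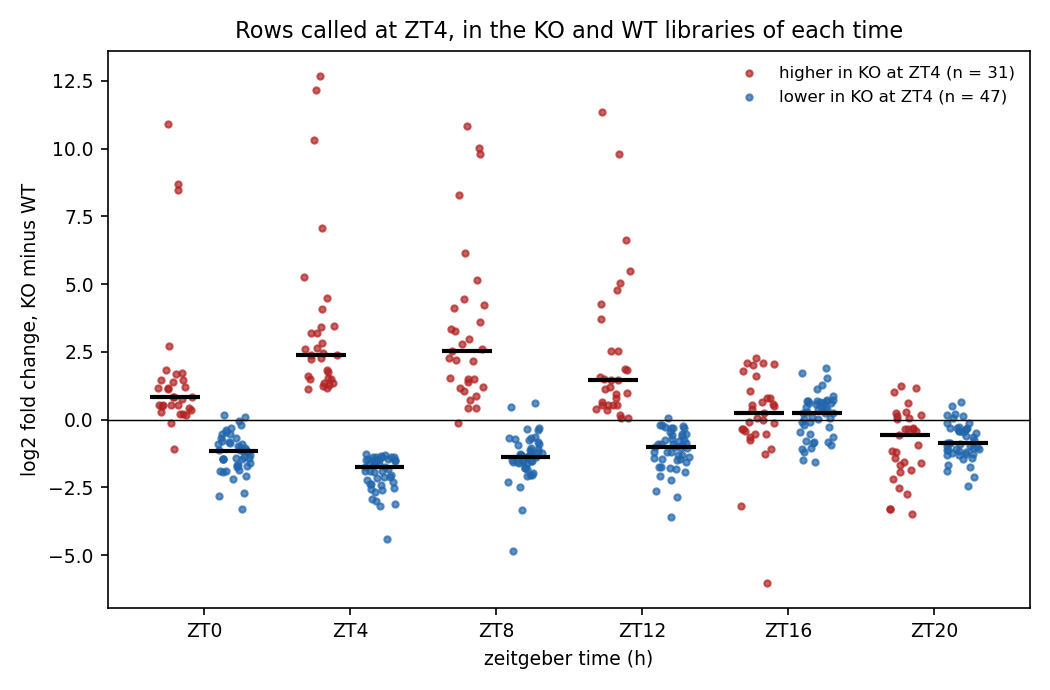
Log2 fold change (KO minus WT) at each zeitgeber time for the 31 rows higher (red) and 47 rows lower (blue) in KO at ZT4, with a black line at the median. Blue medians lie under 0 at all times but ZT16, and red medians lie above 0 at all times but ZT20 (-0.58).

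Whether the KO and WT difference at ZT4 differed from that at the other times was tested in a fit of all 48 KO and WT libraries. No row passed (0%, edgeR adjusted p under 0.05), with 201 rows at an unadjusted p under 0.05. Without ZT16 there were again 0 rows, and 113 at an unadjusted p under 0.05. None of the 78 rows passed this test. The mean difference over the other 5 times had a median of -0.77 over the lower rows, and 31 of the 47 were called lower on that mean, where 10.2% of all rows were. Over the higher rows the median was 0.67, and 14 of the 31 were called higher, where 11.3% of all rows were. Without ZT16 these medians were -0.92 and 0.93, with 39 lower rows called (6.96% of all rows) and 16 higher rows called (8.25%).

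Row 105 was low in KO throughout the day. With all libraries scaled together, its KO mean lay between 39.3 and 64.5 CPM at the 6 times. In WT it was 432 ± 132 CPM at ZT0 (SD, n = 4), 277 ± 27 at ZT8, 231 ± 27 at ZT12, 111 ± 98 at ZT16 and 280 ± 153 at ZT20. The log2 fold change was -2.80 at ZT0 (adjusted p = 0.000861 by edgeR), -2.496 at ZT8 (0.000152) and -2.24 at ZT12 (0.0151). It was -1.04 at ZT16 (0.37) and -2.45 at ZT20 (0.0861), where the test was not passed.

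Row 26770 was called lower at ZT0 (log2 fold change -1.69, adjusted p = 0.0156 by edgeR) and at ZT8 (-2.29, 0.00826). Its WT mean was 68.3 ± 80.2 CPM at ZT16 (SD, n = 4) and between 251 and 526 CPM at the other times, and its KO mean ran from 72.8 to 159.8 CPM. The test was not passed at ZT12 (-1.37, adjusted p = 0.137), ZT16 (1.73, 0.132) or ZT20 (-0.96, 0.427).

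Rows 12512 and 2639 were called higher at ZT8 as well, at log2 fold changes of 4.44 (adjusted p = 6.81e-05 by edgeR) and 3.35 (0.0015). Neither passed it at another time. Row 12512 stood at 1.38 at ZT0 (adjusted p = 0.388), 2.52 at ZT12 (0.168), 0.81 at ZT16 (0.405) and -1.94 at ZT20 (0.204). Row 2639 stood at 0.29 (0.901), 1.56 (0.288), -0.35 (0.666) and -3.29 (0.126) at the same times. The KO mean of row 12512 was 891 ± 579 CPM at ZT8 (SD, n = 4) and 59.9 ± 26.5 CPM at ZT20. Its KO libraries at ZT12 ran from 10.5 to 1155 CPM. The mean of row 12512 was highest at ZT16 in each genotype, at 627 ± 433 CPM in WT, 1069 ± 844 in KO and 1555 ± 1143 in LRE.

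LRE libraries of ZT4 were set beside the same rows in a fit of the 12 libraries of that time, in which 35 rows (2.26%) differed between KO and WT. LRE and KO share the WT libraries as controls. LRE and WT differed at 21 rows (1.35%), 4 higher (0.258%) and 17 lower (1.1%) in LRE. LRE and KO differed at no row (0%, edgeR), with 49 rows at an unadjusted p under 0.05 and 0 rows by DESeq2. The 78 rows were chosen on the same WT libraries, which favours the same side in LRE, so the sides below are a description that supports nothing. Over all tested rows, 56.6% lay above WT in LRE. In LRE the 47 lower rows all lay under WT, from -0.13 to -3.96 on the log2 scale with a median of -1.40, where KO had a median of -1.76. The 31 higher rows all lay above WT, from 0.18 upward with a median of 1.78, where KO had 2.40. The median difference from KO was 0.50 for the lower rows and -0.48 for the higher rows, beside 0.01 over all rows. The rows were also chosen for large differences in these KO libraries. That choice favours LRE values nearer WT than those of KO, so these medians are a description that supports nothing.

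The LRE libraries also differed among themselves. The 31 higher rows held 8.77% of counts in LRE replicate 1 and 3.39% in replicate 3, but 0.856% and 0.510% in replicates 2 and 4. Without the row of the largest fitted fold change these shares were 3.99%, 3.39%, 0.652% and 0.510% in LRE replicates 1, 3, 2 and 4. The 47 lower rows held 0.819% to 1.71% in the LRE libraries. The median correlation with the WT libraries was 0.44 and 0.54 in LRE replicates 1 and 3 and 0.76 and 0.73 in replicates 2 and 4. LRE replicate 1 and KO replicate 4 correlated at 0.81, and LRE replicate 2 and KO replicate 1 at 0.80. These lie above the highest value between 2 KO libraries, which was 0.72. The libraries with large shares of the higher rows were thus found in both genotypes, and were those with the lowest correlations to WT. The part of this spread in the calls was not tested.

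Row 2639 followed this split, at 821 and 891 CPM in LRE replicates 1 and 3 and 73.9 and 47.2 CPM in replicates 2 and 4. Row 12512 stood at 1139 CPM in replicate 1 and at 95.0, 169.7 and 47.2 CPM in replicates 2 to 4. Neither passed the test between LRE and WT (adjusted p = 0.133 and 0.193 by edgeR). Row 105 stood at 27.6, 63.4, 116.7 and 78.6 CPM in LRE, under every WT library, with a log2 fold change from WT of -2.33 ± 0.34 (SE, adjusted p = 0.00285 by edgeR). Row 26770 stood at 69.0, 132, 53.0 and 235.8 CPM, at -2.24 ± 0.55 (adjusted p = 0.0526). Its difference between LRE and KO was 0.68 ± 0.67, and that of row 105 was 0.34 ± 0.46 (SE).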

How the data were processed

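The table the authors deposited holds raw counts in 32377 rows and 180 columns, of which 72 were tied to samples by plate position in the labels and column names, and 108 match no sample used here. The aligner was STAR 2.5.4b, with mm10 and GRCm38 as builds, per the submitters' processing notes. Counts come from sorted, deduplicated alignments, per the file headers. How rows were counted, on which annotation and strand, and whether molecular identifiers were used, is not given in the sources used here.

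Rows with at least 10 counts in at least 4 of the 8 libraries were tested in R 4.3.3 with edgeR 4.0.16 (quasi-likelihood F-test, TMM scaling on full library totals, Benjamini-Hochberg adjustment, threshold 0.05), on the 8 libraries alone. The SE is the fold change over the square root of F. CPM are TMM-scaled, and log2 CPM use a prior count of 2. Rows named have the largest fold changes, at most 2 in each direction, among called rows with a count in every library and no overlap. Members and lists were chosen with earlier results of these data known. Alternatives used DESeq2 1.42.0 and limma 3.58.1. The 6 pairs of KO libraries had chi-square values per degree of freedom of 2.41 to 13.3 and the 6 WT pairs 1.64 to 2.57, so no pair was taken as a single library.

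On simulated counts for the 1552 rows of KO against WT, the test recovered 49 of 50 rows set to a log2 fold of 2, 15 of 50 at 1, 8 of 50 at -1 and 44 of 50 at -2. It made 4 calls among the 1352 rows left unchanged. Simulated rows varied independently, without the spread shared by rows in the KO libraries. Both groups were also given the same spread, whereas the estimated coefficient of variation was 0.44 in KO and 0.19 in WT. The rates of recovery and of false calls may therefore not hold for these libraries.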

Additional observations from a re-analysis of the deposited data

Results flagged for a closer look

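Single libraries lay far from the rest of their group in 8 of 72 sets of 4 values of the named rows. A rate of 1 in 20, or 3.6 sets, would hold for normally distributed values in independent sets. No library measure of ZT4 had a library that far out in 12 sets. For row 12512 this was WT replicate 4 at ZT0 (385.2 CPM), ZT16 (1271 CPM) and ZT20 (695.9 CPM), WT replicate 2 at ZT12 (200.4 CPM), LRE replicate 4 at ZT0 (831.9 CPM) and LRE replicate 1 at ZT4 (1030 CPM). For row 2639 it was WT replicate 4 at ZT0 (770.5 CPM) and at ZT20 (1160 CPM). All 8 values were the highest of their group, and none was of a row lower in KO at ZT4. The sets hold unlogged CPM of the same 4 rows, so the rate of 1 in 20 may not hold for them. These CPM come from scaling all 72 libraries together, so they differ from those of the ZT4 libraries scaled alone, where row 12512 stood at 1139 CPM in LRE replicate 1.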

How the results depend on the processing

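With RLE scaling, upper-quartile scaling and scaling without the 10 largest rows, 78, 81 and 78 rows were called between KO and WT at ZT4. The count was 33 with limma-voom (9 higher, 24 lower), 35 in the fit of the 12 ZT4 libraries (7 and 28) and 0 with library total as a term (0 and 0). It was 108 with DESeq2 (44 and 64) and 56 in the fit of all 72 libraries (24 and 32). With edgeR's own low-count filter it was 65 of 1058 rows (24 and 41). Rows 12512 and 2639 were not tested there, nor with the filter on thinned counts given below. Without a low-count filter 629 of 16385 rows were called, 393 higher and 236 lower. Leaving out single libraries gave 30 to 272 calls, 8 to 158 higher and 22 to 114 lower. Of alternatives chosen after seeing the data, thinning with the filter on thinned counts gave 20 higher of 52, limma-voom with library weights 64 higher of 116, and the fit without KO replicates 2 and 4 gave 40 (13 higher, 27 lower). The causes were not tested, beyond the number of rows tested or of libraries where these differ.

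LRE and WT differed at 55 rows with DESeq2 and at 6 to 37 without single libraries. The number of calls at other times in the same direction as at ZT4, summed over times, was 101, and 56 to 188 without single ZT4 libraries. LRE against KO, and ZT4 against the other times, gave 0 rows under every alternative run.

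Replicate numbers are shared by the groups, and the labels do not say whether equal numbers mark pairs. Deviations of same-numbered KO and WT libraries correlated at -0.28, 0.06, -0.002 and -0.21 over rows. Low correlations cannot decide whether libraries were paired in collection or processing. With the replicate block 30 rows differed between KO and WT (12 higher, 18 lower) and 5 between LRE and WT. Depth limits the rows that can be tested at all, and rows changed 2-fold were recovered in a minority of simulated cases.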

Other observations

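The 4 rows with no count in at least 3 WT libraries of ZT4 were followed through the series as a share of all counts. Their choice and the filter largely set the KO and WT shares at ZT4, which are a description. In KO their share had a median of 1.28% at ZT4, 1.23% at ZT8 and 0.966% at ZT16. At ZT20 it was under 0.0088% in all 4 KO libraries. In WT the share was at most 0.0275% at ZT4 and 0.00931% at ZT8, yet it reached 2.11% in a library of ZT0 and ran from 0.114% to 1.36% at ZT16. In LRE it had a median of 1.26% at ZT0 and 1.52% at ZT20, and was at most 0.00724% at ZT8. The share was thus high in some libraries of every genotype.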
